A study of Homo sapiens with 24 samples.

Results

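The comparison concerned the RWPE-1 cell line with C-Raf overexpressed, set against its 1 vector control library. Of 24 libraries in the series, 5 belonged to it, namely the vector control, the C-Raf parental cells, lymph node lines 1A and 1B, and a spine line. A gene was kept when it reached 5 CPM in the control or in the mean of the 4 C-Raf libraries and when all 4 C-Raf values lay on one side of the control by 2-fold or more. Levels are in CPM, the usual depth-scaled unit of read counts, taken over protein-coding genes after TMM scaling. Of 19202 protein-coding genes in the table, 10530 reached this level, 171 were higher in all 4 C-Raf libraries (1.62% of the 10530) and 102 were lower (0.969%). These shares are themselves the background, because the genes were chosen by this contrast, and the size of a difference is therefore a description without a test.

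RWPE-1 is an established line of human prostate epithelial cells immortalized with HPV18, and all 5 libraries share that background. The methods give serum-free keratinocyte medium with EGF and bovine pituitary extract for RWPE-1 cells. They name no medium for the metastasis-derived lines. The control cells carried the FU-ILYW lentiviral vector with its firefly luciferase reporter, and the C-Raf cells carried the same vector with unmutated C-Raf behind the ubiquitin promoter. The lymph node and spine lines came from C-Raf cells that had been injected into the left ventricle of immunodeficient NSG mice and were recovered from metastases and cultured again. Both lymph node lines bear the number 1, and the labels do not say whether they came from 1 animal. Each label marks 1 library, so the 4 C-Raf libraries are a parental culture with 3 derivatives of C-Raf cells and not replicates of one condition. Transduction, the vector insertion and culture history cannot be told apart from C-Raf itself with 1 control.

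C-Raf is a serine/threonine kinase that receives signals from RAS and phosphorylates MEK, which activates ERK. ERK drives transcription of immediate early factors, of EGFR ligands and of the phosphatases and Sprouty proteins that restrain the cascade. Basal prostate epithelial cells hold keratins of the basal layer and the factor p63, rest on laminin through integrins, and in culture can switch on genes of stratified squamous epithelium. A loss of epithelial junction genes with a gain of vimentin, fibronectin and ZEB factors is the textbook picture of epithelial-mesenchymal transition.

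The 5 libraries held 34276127 to 43037870 expected counts, of which 97.6% to 97.8% fell on protein-coding genes. The basal markers KRT5, KRT14 and TP63 were present in all 5. KRT5 was at 6737 CPM in the control and at 4258, 1022, 1206 and 686 CPM in the C-Raf libraries. Of 12 haematopoietic markers, 10 were under 1 CPM in all 5 libraries, 4 of them at 0, and the summed level of the list ran from 36.0 CPM in the control to 59.2, 81.0, 97.8 and 91.2 CPM, nearly all of it CD68, a lysosomal protein that is not restricted to blood cells, at 34.03 CPM in the control against 57.7, 78.9, 94.9 and 88.9 CPM with C-Raf. Markers of fibroblasts summed to 8.16 CPM in the control and to 9.61 to 20.01 CPM in the C-Raf libraries, and those of endothelium to 1.11 CPM and 1.81 to 5.36 CPM. Whether mouse RNA entered the lines was not tested. Between library pairs, 339 genes differed 2-fold or more between control and parental cells, and 704, 770 and 766 between control and the 3 lines. Between parental cells and lymph node lines 1A and 1B and the spine line, 286, 375 and 347 genes differed. The parental library was thus about as far from the lines as from the control. Between any of the lines 90 to 94 genes differed, so the lines were nearest each other.

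In the rest of the text the 4 C-Raf values of a gene always come in the order parental, lymph node 1A, lymph node 1B and spine. Fold changes compare the mean of the 4 with the control, and the SD is over those 4 libraries. Ranges for the 7 other RWPE-1 C-Raf libraries of the series (3 parental, 1 spine and 3 bone lines, deposited in another table without a control) are given beside some genes as levels only. The lone control enters every ratio.

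The 12 higher genes with the widest separation were INHBA, VCAN, FN1, ITGA4, CHSY3, HS3ST3A1, ANPEP, IL18R1, WIPF1, IGFBP3, KIAA1549L and TMEM156. INHBA, the βA subunit of activin A (ENSG00000122641, GRCh38 chr7:41667168-41705834), was at 2.68 CPM in the control and at 55.6, 154, 121 and 216 CPM in the C-Raf libraries. The control value rested on 89 counts, which allow 2.15 to 3.30 CPM (exact Clopper-Pearson 95% interval, counting error only), and the mean of 137 ± 66.8 CPM (SD, n = 4) was 50.96 times the control. The 7 other C-Raf libraries held 111 to 369 CPM.

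VCAN, the chondroitin sulfate proteoglycan versican (ENSG00000038427, chr5:83471465-83582303), was at 7.35 CPM in the control against 144, 133, 328 and 274 CPM with C-Raf, 29.9 times higher in the mean. FN1, fibronectin (ENSG00000115414, chr2:215360440-215436172), was at 66.98 CPM in the control and at 428, 1982, 2715 and 2192 CPM in the C-Raf libraries. Its parental value was the lowest of the 4, below the 7 other C-Raf libraries at 916 to 4006 CPM, and the mean was 1829 ± 983 CPM (SD, n = 4), 27.3 times the control. ITGA4, the α4 subunit of an integrin that binds fibronectin and VCAM-1, was at 2.199 CPM in the control against 16.2, 17.3, 24.3 and 31.98 CPM with C-Raf. The enzymes that build or modify glycosaminoglycan chains were represented by CHSY3, a chondroitin sulfate synthase, at 0.512 CPM in the control and at 5.69, 11.4, 12.1 and 12.2 CPM in the C-Raf libraries, and by HS3ST3A1, a heparan sulfate sulfotransferase, at 0.663 CPM in the control against 7.44, 12.995, 13.2 and 13.9 CPM with C-Raf. For CHSY3 and HS3ST3A1 the 3 lines lay close together and the parental library below them.

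ANPEP, the membrane aminopeptidase N, was at 2.14 CPM in the control and at 28.9, 190.1, 163 and 245 CPM in the C-Raf libraries. IL18R1, a subunit of the interleukin-18 receptor, was at 0.181 CPM in the control against 3.88, 6.46, 5.44 and 4.94 CPM with C-Raf. WIPF1, which binds the actin regulator WASP, was at 1.39 CPM in the control and at 19.3, 30.03, 32.5 and 25.95 CPM in the C-Raf libraries. In all 3 genes the parental library held the least of the 4 C-Raf libraries. IGFBP3, which binds insulin-like growth factors in the extracellular space, rested on 2 counts in the control. Its levels were 0.0602 CPM in the control against 3.91, 27.4, 20.97 and 19.003 CPM with C-Raf, and the ratio of 296 carries a counting interval of 81.9 to 2444 from the control alone. KIAA1549L was at 1.205 CPM in the control and at 14.3, 29.1, 23.5 and 24.6 CPM in the C-Raf libraries and TMEM156 at 1.08 CPM in the control against 10.7, 18.8, 14.3 and 21.4 CPM with C-Raf, and no function is given for either here.

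**Figure D1:**
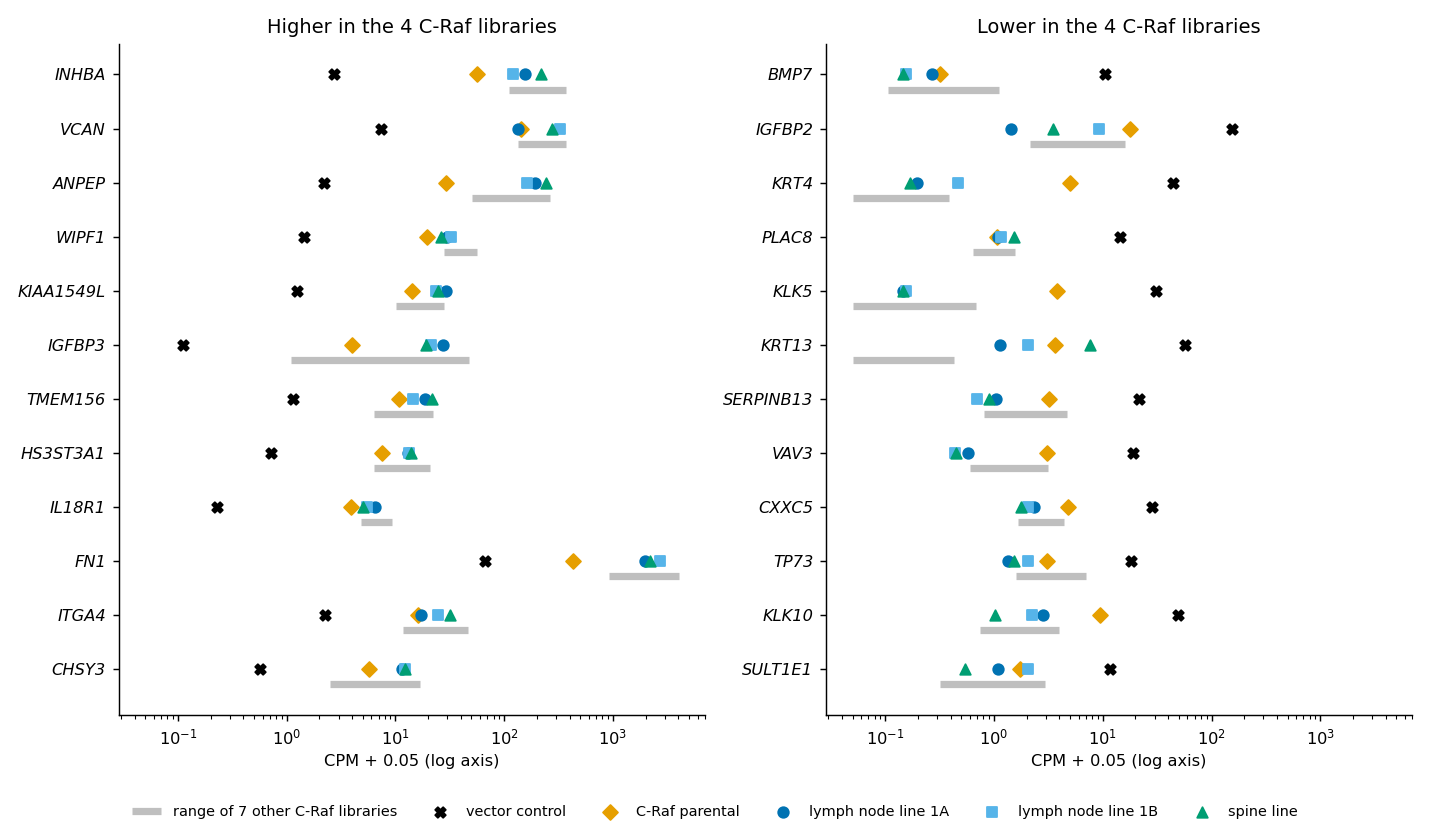
CPM (0.05 added, log axis) of the 12 higher and 12 lower genes with the widest separation, with 1 point for each of the 5 libraries and a grey bar for the range of the 7 other RWPE-1 C-Raf libraries. Every C-Raf point lies on one side of the black control cross, which the choice of genes fixes, and the parental diamond is often the C-Raf point nearest to it.

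The 12 lower genes furthest from the control included 2 keratins and 2 kallikreins. KRT4, a keratin of stratified mucosal epithelium, was at 44.2 CPM in the control and at 4.95, 0.144, 0.418 and 0.118 CPM in the C-Raf libraries, and its partner KRT13 at 57.1 CPM in the control against 3.62, 1.08, 1.99 and 7.63 CPM with C-Raf. The parental library kept KRT4 at a level above the 3 lines, while for KRT13 the spine line held more than the parental library. KLK5, a secreted serine peptidase of the kallikrein family (ENSG00000167754, chr19:50943303-50953093), was at 30.6 CPM in the control and at 3.77, 0.0961, 0.105 and 0.0945 CPM in the C-Raf libraries. The 3 lines were at 4 counts each, and the control was 30.1 times the C-Raf mean. KLK10, of the same family, was at 49.03 CPM in the control against 9.37, 2.79, 2.17 and 0.969 CPM with C-Raf. SERPINB13, an intracellular inhibitor of cysteine cathepsins, was at 21.7 CPM in the control and at 3.14, 0.985, 0.654 and 0.851 CPM in the C-Raf libraries, with all 3 lines under 1 CPM.

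BMP7, a ligand of the bone morphogenetic protein branch of the TGF-β family (ENSG00000101144, chr20:57168748-57266629), was at 10.4 CPM in the control against 0.267, 0.216, 0.105 and 0.0945 CPM with C-Raf. Its 4 C-Raf values were all under 1 CPM and the control was 60.7 times their mean. IGFBP2, another binding protein of insulin-like growth factors, was at 153 CPM in the control and at 17.7, 1.39, 9.15 and 3.43 CPM in the C-Raf libraries, so the control lay 19.3 times above the mean while IGFBP3 lay on the other side. VAV3, a guanine nucleotide exchange factor, was at 18.9 CPM in the control against 3.02, 0.528, 0.392 and 0.402 CPM with C-Raf. TP73, a transcription factor of the p53 family, was at 17.98 CPM in the control and at 2.99, 1.297, 2.01 and 1.49 CPM in the C-Raf libraries, and CXXC5, a zinc finger protein of the CXXC family, at 28.5 CPM in the control against 4.77, 2.31, 2.01 and 1.73 CPM with C-Raf. All 4 C-Raf libraries were under 5 CPM for these 3 genes. PLAC8 was at 14.5 CPM in the control and at 1.01, 1.03, 1.098 and 1.47 CPM in the C-Raf libraries and SULT1E1, an estrogen sulfotransferase, at 11.7 CPM in the control against 1.69, 1.03, 1.99 and 0.496 CPM with C-Raf.

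Gene lists are described by how many of their genes at 5 CPM passed the size rule, read against 1.62% higher and 0.969% lower over all genes at that level, and by the median log2 ratio of the C-Raf mean to the control (0.5 CPM added), which was −0.02 over all 10530. The lists were chosen with earlier results of these data known. A gene low in the control enters only through its C-Raf mean, and one low with C-Raf only through the control. This favours genes that pass the rule, in counts and medians alike, and the shares over all genes carry the same filter. Of 18 squamous differentiation genes, 9 were lower and 0 higher, with a median of −2.08. Beside KRT4, KRT13, KLK5 and KLK10 these were KLK8, SBSN (suprabasin), S100A9 (a calcium-binding protein of the calprotectin dimer), A2ML1 (a protease inhibitor of the epidermis) and SERPINB3 (squamous cell carcinoma antigen). A2ML1 was at 9.31 CPM in the control and at 2.79, 0.168, 0.418 and 0.213 CPM in the C-Raf libraries. S100A9 was at 20.96 CPM in the control against 7.501, 1.47, 3.61 and 1.82 CPM with C-Raf. In both genes the 3 lines lay below the parental library. The other 9 genes did not pass, and KRT10, a suprabasal keratin, was level at 18.1 CPM against 18.6, 19.1, 18.5 and 18.2.

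Basal markers gave 1 lower gene of 14, NGFR, a neurotrophin receptor of basal cells, at 31.02 CPM in the control and at 10.3, 6.89, 6.25 and 6.003 CPM in the C-Raf libraries, and a median of −0.45. KRT5 missed the rule because the parental library kept 4258 CPM, while the lines held 1022, 1206 and 686. KRT14 was likewise at 4403 CPM in the control against 3795, 1441, 1707 and 1099.8 CPM with C-Raf. TP63 was at 280.4 CPM in the control and at 207, 165, 148 and 161 CPM in the C-Raf libraries, and the control was above all 4. ITGA6, an integrin subunit that binds laminin, and LAMB3, a laminin chain, had C-Raf means of 0.92 and 1.16 on the log2 scale relative to the control.

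Of 16 epithelial junction and transcription factor genes, 3 were lower and 0 higher, with a median of −0.72. CLDN4, a tight junction claudin, was at 18.01 CPM in the control against 5.8999, 2.45, 1.57 and 2.29 CPM with C-Raf. OCLN, occludin, was at 21.4 CPM in the control and at 10.5, 7.95, 5.57 and 7.303 CPM in the C-Raf libraries. ELF3, an epithelial ETS factor, was at 20.03 CPM in the control against 5.69, 4.76, 3.24 and 4.82 CPM with C-Raf. Each of these had its parental value nearest the control. E-cadherin (CDH1) did not pass, at 245 CPM in the control and at 245, 167, 87.3 and 147 CPM in the C-Raf libraries, and its parental value was close to the control. GRHL2, a regulator of epithelial junction genes, was at 95.4 CPM in the control against 63.3, 20.3, 8.21 and 22.03 CPM with C-Raf, lower mainly in the 3 lines. PROM2 and the ectodermal factors DLX3 and TFAP2C were also among the 102. TFCP2L1, a transcription factor of the grainyhead family, was at 395 CPM in the control and at 103, 47.6, 40.98 and 46.3 CPM in the C-Raf libraries. These 4 genes are in no list and were chosen after their values were seen.

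Of 11 mesenchymal genes, 4 were higher and 0 lower, with a median of 0.98. Vimentin (VIM) was at 288 CPM in the control against 879, 1643, 1796 and 1606 CPM with C-Raf, 5.14 times the control in the mean. ZEB1, a repressor of epithelial genes, was at 0.392 CPM in the control and at 2.85, 10.6, 23.3 and 11.3 CPM in the C-Raf libraries. ZEB2, its paralog, had 3 counts in the control and was at 0.0903 CPM in the control against 1.25, 5.93, 14.7 and 9.03 CPM with C-Raf, with a ratio of 85.5 and a counting interval of 29.3 to 415. FN1, described above, was the other member that passed. Vimentin lay highest in the 3 lines, and ZEB1 and ZEB2 highest in lymph node line 1B. SNAI2 and TWIST1 stayed short of the rule, at 90.7 CPM against 121, 150.4, 134 and 122 and 10.03 CPM against 7.74, 7.16, 11.8 and 8.39.

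**Figure D2:**
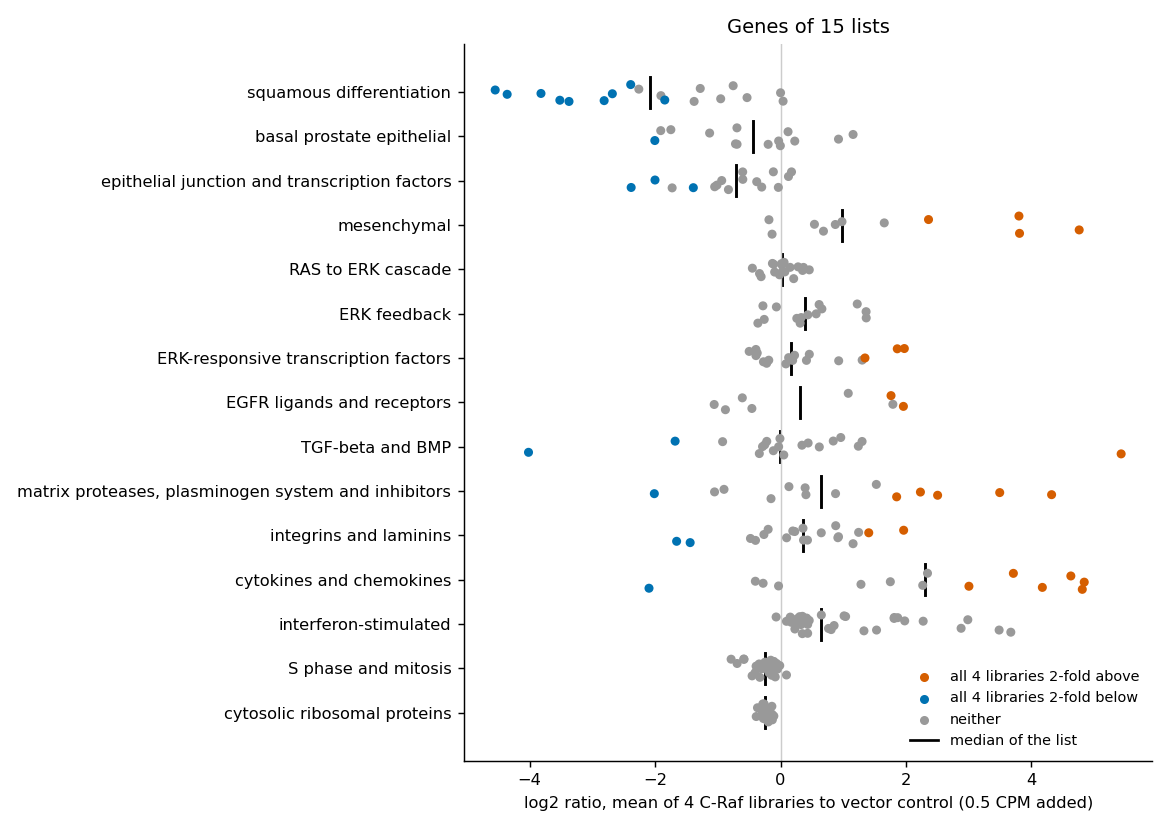
Log2 ratio of the mean of the 4 C-Raf libraries to the vector control for each gene at 5 CPM in 15 lists, coloured by the size rule, with a black bar at the list median. The squamous list centres at −2.08 and the cytokine list at 2.30, the RAS to ERK cascade at 0.03, and the S phase and mitosis and the ribosomal lists both at −0.25.

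The components of the cascade itself were near the control. None of 18 RAS to ERK genes passed in either direction, and their median was 0.03. ARAF was at 55.4 CPM in the control and at 51.5, 50.1, 52.5 and 48.6 CPM in the C-Raf libraries, and BRAF at 17.8 CPM in the control against 19.1, 20.2, 24.2 and 23.4 CPM with C-Raf. The highest log2 ratio belonged to MAP2K1 (MEK1) at 0.46, with 121 CPM in the control and 166, 172, 154 and 173 in the C-Raf libraries. MAPK3 (ERK1) was at 31.9 CPM in the control and at 27.9, 21.7, 21.4 and 22.004 CPM in the C-Raf libraries, below the control in all 4.

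No gene of the ERK feedback list reached the rule. Of 14, 10 had a log2 ratio above 0, and the median was 0.38. DUSP6, the cytoplasmic ERK phosphatase, was at 231 CPM in the control against 355, 345, 380.1 and 381 CPM with C-Raf. The 4 C-Raf values were close to each other and all above the control. DUSP5, a nuclear ERK phosphatase, was at 52.2 CPM in the control and at 102, 135, 165 and 139 CPM in the C-Raf libraries, SPRY4 at 31.4 CPM in the control against 62.2, 66.1, 77.8 and 89.6 CPM with C-Raf and the EGFR inhibitor ERRFI1 at 122 CPM in the control and at 230.0, 302, 394 and 336 CPM in the C-Raf libraries, and in each the parental value was just under 2-fold. DUSP9, DUSP10, SPRY1 and SPRED2 had log2 ratios below 0.

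Of 18 ERK-responsive transcription regulators, 3 were higher and 0 lower, with a median of 0.16. FOSL1, the AP-1 subunit Fra-1, was at 65.8 CPM in the control against 187, 261, 236 and 278 CPM with C-Raf. ETS1, an ETS factor phosphorylated by ERK, was at 54.8 CPM in the control and at 144, 232, 225 and 266 CPM in the C-Raf libraries. PHLDA1 was at 102 CPM in the control against 214, 274, 228 and 326 CPM with C-Raf. The 3 lines held more of FOSL1 and ETS1 than the parental library. The immediate early genes FOS and EGR1 were not above the control, with FOS at 77.1 CPM in the control and at 54.8, 54.5, 61.9 and 46.5 CPM in the C-Raf libraries and EGR1 at 449 CPM in the control against 425, 411, 361 and 344 CPM with C-Raf.

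Of 8 EGFR ligand and receptor genes, 2 were higher and 0 lower, 4 had a log2 ratio above 0, and the median was 0.31. EREG (epiregulin), a ligand, was at 75.4 CPM in the control and at 167, 289, 397 and 325 CPM in the C-Raf libraries, and HBEGF at 5.63 CPM in the control against 11.9, 21.5, 18.9 and 28.9 CPM with C-Raf. Both passed the rule. AREG (amphiregulin) lay just outside it, at 78.2 CPM in the control and at 156, 314, 337 and 279 CPM in the C-Raf libraries, because its parental value was 1.9966 times the control. TGFA was at 79.2 CPM in the control against 123, 168, 164 and 217 CPM with C-Raf. EGFR itself was at 1136 CPM in the control and at 850.2, 649.6, 685 and 793 CPM in the C-Raf libraries and ERBB3 at 30.7 CPM in the control against 21.4, 13.7, 8.08 and 14.9 CPM with C-Raf, both below the control in all 4 libraries, and neither passed. The receptor ERBB2 was at 102 CPM in the control and at 85.4, 72.5, 69.1 and 70.4 CPM in the C-Raf libraries. NRG1, a ligand of ERBB3 and ERBB4, was at 21.1 CPM in the control against 17.3, 9.49, 10.9 and 7.21 CPM with C-Raf. Neither of these passed.

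Among 19 TGF-β and BMP genes, INHBA was higher, BMP7 and ID3 were lower, and the median was −0.01, which turned to 0.01 without the TMM factors. ID3, a target of BMP signalling that blocks basic helix-loop-helix factors, was at 35.7 CPM in the control and at 9.58, 12.1, 9.52 and 11.98 CPM in the C-Raf libraries. The 4 C-Raf values of ID3 were alike. FST (follistatin), which binds activin, was at 108 CPM in the control against 117, 289, 269 and 348 CPM with C-Raf, with the parental value near the control. TGFBI was at 216 CPM in the control and at 320.2, 515, 763 and 529 CPM in the C-Raf libraries.

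Cytokines and chemokines gave 6 higher genes and 1 lower of 14, with a median of 2.30. Those 6 were all under 1 CPM in the control and counted among the 14 only through their C-Raf mean. The count and the median are therefore partly set by the level minimum. CXCL8, a neutrophil chemokine, had 6 counts in the control and was at 0.181 CPM in the control against 1.04, 11.4, 26.4 and 37.3 CPM with C-Raf. CXCL2 was at 0.813 CPM in the control and at 2.22, 17.7, 20.7 and 26.3 CPM in the C-Raf libraries and CXCL3 at 0.542 CPM in the control against 1.19, 9.44, 10.1 and 10.7 CPM with C-Raf. The parental library was a few-fold over the control in the 3 chemokines, and the lines lay far above both. CCL20, the ligand of CCR6, was at 0.542 CPM in the control and at 2.55, 13.7, 34.3 and 50.4 CPM in the C-Raf libraries. CSF3 (granulocyte colony-stimulating factor) had 1 count in the control, so its ratio of 477 has a counting interval of 85.7 to 18851, and it was at 0.712, 11.3, 14.2 and 31.3 CPM in the C-Raf libraries. IL33 had 0 counts in the control, which allows up to 0.0903 CPM, and its C-Raf mean of 8.52 CPM was at least 94.3-fold higher. The C-Raf library nearest the control was at least 7.55-fold higher, so the mean rests on the higher libraries. IL1RN, the antagonist of the interleukin-1 receptor, was the lower gene, at 7.8002 CPM in the control against 3.85, 0.697, 0.549 and 0.662 CPM with C-Raf. IL1A and IL1B did not pass since the parental library was under 2-fold, IL1B being at 56.02 CPM in the control and at 76.05, 252, 333 and 483 CPM in the C-Raf libraries. The receptor gene IL1R1, which binds IL-1, was at 2.11 CPM in the control against 9.07, 12.5, 11.4 and 11.04 CPM with C-Raf. IL1RL1, which encodes the receptor of IL-33, had 0 control counts and was at 2.28, 4.396, 8.76 and 8.49 CPM, at least 66.2-fold higher in the mean.

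The upstream regions of the chemokine genes are shown because CXCL8, CXCL3 and CXCL2 lie in one run on chromosome 4 and lay on the same side of the control, with CCL20 from chromosome 2 and INHBA, the top gene, beside them. Each is the 250 bases before the RefSeq start (GRCh38.p14), read 5′ to 3′ on the strand of the gene. Capitals mark matches, on either strand, to the AP-1 letters TGANTCA and the NF-kB letters GGNNTTTCC, which do not overlap here. The positions are CXCL8 chr4:73740319-73740568, plus strand, CXCL3 chr4:74038690-74038939, minus strand, CXCL2 chr4:74099196-74099445, minus strand, CCL20 chr2:227813592-227813841, plus strand and INHBA chr7:41703091-41703340, minus strand.
CXCL8: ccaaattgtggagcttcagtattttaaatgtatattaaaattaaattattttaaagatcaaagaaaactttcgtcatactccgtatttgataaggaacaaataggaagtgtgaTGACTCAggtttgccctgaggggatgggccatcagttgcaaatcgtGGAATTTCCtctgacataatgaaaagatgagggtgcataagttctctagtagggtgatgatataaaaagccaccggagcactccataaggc
CXCL3: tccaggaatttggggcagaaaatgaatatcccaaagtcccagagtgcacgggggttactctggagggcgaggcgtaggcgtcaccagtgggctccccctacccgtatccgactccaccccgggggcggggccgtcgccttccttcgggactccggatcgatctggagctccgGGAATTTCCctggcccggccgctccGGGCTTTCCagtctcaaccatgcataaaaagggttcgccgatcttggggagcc
CXCL2: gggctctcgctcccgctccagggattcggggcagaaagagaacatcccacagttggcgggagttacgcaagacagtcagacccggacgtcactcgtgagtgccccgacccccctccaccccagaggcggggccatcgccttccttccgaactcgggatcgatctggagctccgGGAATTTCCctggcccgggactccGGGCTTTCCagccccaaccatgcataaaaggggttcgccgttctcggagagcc
CCL20: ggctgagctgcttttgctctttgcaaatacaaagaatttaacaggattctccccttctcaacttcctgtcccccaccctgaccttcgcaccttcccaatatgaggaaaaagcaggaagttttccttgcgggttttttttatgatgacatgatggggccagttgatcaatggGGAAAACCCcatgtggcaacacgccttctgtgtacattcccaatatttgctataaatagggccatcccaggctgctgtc
INHBA: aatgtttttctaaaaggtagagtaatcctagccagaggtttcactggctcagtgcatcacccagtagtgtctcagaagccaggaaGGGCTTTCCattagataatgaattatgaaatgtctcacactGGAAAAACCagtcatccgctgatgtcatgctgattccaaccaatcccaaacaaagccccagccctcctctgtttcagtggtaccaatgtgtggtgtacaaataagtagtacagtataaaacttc
CXCL8 held both motifs, with the AP-1 letters 137 to 131 bases and the NF-kB letters 91 to 83 bases before the start. CXCL3 and CXCL2 each held the same pair of NF-kB matches, GGAATTTCC and GGGCTTTCC, in a stretch of nearly equal letters. CCL20 had 1 NF-kB match and INHBA 2. Over all 27305 promoters of the RefSeq table, 6.6% held the AP-1 letters and 5.48% the NF-kB letters in the same window. Among the 8761 found for genes at the level minimum, these shares were 3.45% and 5.99%. A match is a description of letters and says nothing on binding in these cells. A promoter was found for 130 of the 170 higher genes shown and for 85 of the 102 lower genes. Since the former is under 80%, no percentage over the higher genes is given. The NF-kB letters were in 12 of the 130 and 5 of the 85, the AP-1 letters in 11 and 7. The genes printed here, which all hold the NF-kB letters, were picked and do not stand for the higher genes.

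Matrix proteases, the plasminogen system and their inhibitors gave 5 higher genes and 1 lower of 14, with a median of 0.64. PLAU, the urokinase plasminogen activator, was at 50.5 CPM in the control and at 111, 257, 233 and 353 CPM in the C-Raf libraries. Its inhibitor SERPINB2 (PAI-2) was at 1.14 CPM in the control against 4.68, 14.3, 36.9 and 73.5 CPM with C-Raf. The spine line held the most SERPINB2. SERPINE2, an inhibitor of thrombin and urokinase, was at 23.5 CPM in the control and at 71.4, 91.9, 276 and 103 CPM in the C-Raf libraries, highest in lymph node line 1B. MMP9, the gelatinase B, was at 0.361 CPM in the control against 0.8598, 15.7, 8.604 and 11.7 CPM with C-Raf, with the parental library the lowest of the 4, and the 7 other C-Raf libraries spanned 29.8 to 1376 CPM. TIMP3, a matrix-bound metalloproteinase inhibitor, was the lower gene at 49.5 CPM in the control and at 18.8, 13.8, 9.28 and 5.63 CPM in the C-Raf libraries.

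Among 20 integrin and laminin genes, 2 were higher and 2 lower, and the median was 0.36. The higher genes included ITGA1, and the lower genes were ITGB8 and DST. ITGA1, a collagen receptor subunit, was at 10.3 CPM in the control against 22.9, 29.3, 29.7 and 30.9 CPM with C-Raf. ITGB8 was at 50.4 CPM in the control and at 19.9, 9.897, 21.1 and 11.8 CPM in the C-Raf libraries, and DST, which codes for the hemidesmosome plakin BPAG1, at 305 CPM in the control against 151, 92.9, 97.3 and 106 CPM with C-Raf. LAMB3 and LAMA3, which code for laminin chains, did not pass and were at 126 CPM in the control and at 169, 379, 169 and 409 CPM in the C-Raf libraries and 126 CPM in the control against 166, 343, 151 and 267 CPM with C-Raf, with lymph node line 1B near the parental value. Of 14 collagen genes, COL6A1 and COL6A2 were higher. COL6A2 was at 0.241 CPM in the control and at 2.64, 34.8, 35.6 and 14.3 CPM in the C-Raf libraries, and the parental library held far less than the lines.

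In the remaining lists few genes passed. PGF (placental growth factor) and ANGPTL4 were higher of 13 angiogenic factors, whose median was 0.58. ANGPTL4, an inhibitor of lipoprotein lipase, was at 1.205 CPM in the control against 7.17, 21.7, 15.3 and 18.9 CPM with C-Raf. VEGFA did not pass, at 24.2 CPM in the control and at 42.7, 75.8, 72.7 and 78.5 CPM in the C-Raf libraries. SLC2A3 (GLUT3) was higher of 25 glycolysis and hypoxia genes, at 2.14 CPM in the control against 10.1, 24.3, 34.5 and 28.5 CPM with C-Raf, while the median there was 0.18. AKR1C1 and AKR1C3, aldo-keto reductases of steroids, were higher of 17 NRF2 and antioxidant genes with a median of −0.10. Of 20 receptor tyrosine kinase and Eph genes only FGFR2 passed, lower at 19.2 CPM in the control and at 4.89, 2.98, 2.14 and 2.27 CPM in the C-Raf libraries. FZD8 was higher and WNT10A lower of 17 WNT genes, LFNG was lower of 11 Notch genes, and STEAP2 was higher of 6 luminal genes. SYT1, a synaptic vesicle protein, was higher of the neuroendocrine markers, at 0.181 CPM in the control against 3.02, 7.13, 7.04 and 6.71 CPM with C-Raf, and CHGA, SYP and the other markers of that list did not reach 5 CPM.

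The 11 pathway lists without a gene past the rule included 30 S phase and mitosis genes (median −0.25, 1 gene above 0) and 20 cytosolic ribosomal protein genes (median −0.25, 0 above 0). MKI67, a proliferation marker, was at 1274 CPM in the control and at 1192, 1057, 966 and 969 CPM in the C-Raf libraries. In the 5 libraries the proliferation genes were nearest to even in the parental cells, with a list median of −0.10, and lower in the lines, at −0.22, −0.32 and −0.39. Medians were −0.05 over 15 G1 cyclin and CDK inhibitor genes, 0.24 over 11 BCL2 family genes, −0.19 over 27 sterol and fatty acid genes, −0.03 over 23 stress response genes, 0.49 over 3 metallothionein genes and 0.46 over 13 antigen presentation genes. The antigen presentation median was −0.07 in the parental library and 0.54, 0.68 and 0.52 in the lines. CDKN1A (p21) was at 48.2 CPM in the control against 68.2, 175, 314 and 285 CPM with C-Raf, and MCL1 at 428 CPM in the control and at 763, 993, 1050.3 and 1050.5 CPM in the C-Raf libraries. Neither passed, because the parental library was under 2-fold.

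The 1 parental library of this comparison lay between the control and the lines for most of these genes. It was the C-Raf library nearest the control in 144 of 171 higher genes and in 83 of 102 lower genes. Over all 10530 genes at 5 CPM, it lay between the control and all 3 lines in 4951 (47.0%). The size rule already places every C-Raf value of the higher and lower genes on the same side of the control. Lying between the control and the lines requires this too, and the other genes need not meet it. The 47.0% is therefore not a like-for-like background for the 144 and the 83, and the excess over it is partly fixed by the choice of genes. The median log2 ratio of the higher genes was 1.44 in the parental library and 2.41, 2.39 and 2.31 in the lines, and that of the lower genes was −1.40 and −2.38, −2.43 and −2.50. In 49 higher and 37 lower genes the lines lay a further 2-fold or more beyond this parental library. All 3 lay 2-fold or more back toward the control in 0 genes. The 3 other RWPE-1 C-Raf parental libraries, deposited without a control, do not enter these counts. Among the 12 widest higher genes, INHBA, FN1, ANPEP, WIPF1 and IL18R1 were lower in this parental library than in all 7 other C-Raf libraries. The other genes of the 12 were not. With no 2-fold condition on the parental library, 312 genes were 2-fold above the control in the 3 lines (2.96%) and 242 below (2.3%). The parental library was past 2-fold too in 171 and 102 of these. The minimum of 5 CPM still used the mean of all 4 C-Raf libraries. Leaving the parental library out of that mean too gave 328 above and 242 below.

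**Figure D3:**
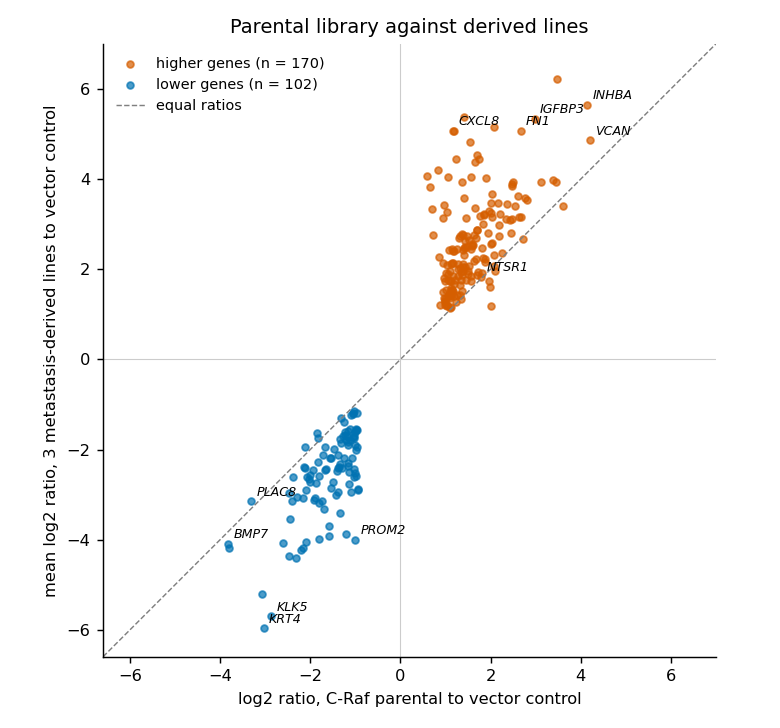
Log2 ratio to the vector control in the C-Raf parental library (x axis) and the mean log2 ratio of the 3 metastasis-derived lines (y axis) for 170 higher and 102 lower genes, with a dashed line of equal ratios. Most points lie beyond the line, farther from 0 in the derived lines, and PLAC8, BMP7 and VCAN lie near it.

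VCAN, PLAC8, ID3 and HEG1 were as far from the control in this parental library as in at least 1 line. HEG1, a mucin-like membrane protein, was at 91.9 CPM in the control against 25.3, 24.7, 29.9 and 26.9 CPM with C-Raf. By contrast PROM2, a prominin of epithelial membrane protrusions, was at 91.8 CPM in the control and at 45.4, 6.39, 3.45 and 6.48 CPM in the C-Raf libraries, and EPN3, an epsin of endocytosis, at 40.5 CPM in the control against 17.3, 2.86, 1.54 and 2.72 CPM with C-Raf, with the parental library nearest the control in both. ESM1 (endocan) had 1 control count and was at 0.296, 7.49, 9.39 and 8.63 CPM, TGM2 (tissue transglutaminase) was at 0.903 CPM in the control and at 2.02, 22.1, 19.8 and 37.3 CPM in the C-Raf libraries, and complement C3 at 1.596 CPM in the control against 5.099, 54.2, 89.9 and 135 CPM with C-Raf. In these 3 genes the lines stood far above the parental library. HEG1, PROM2, EPN3, ESM1, TGM2 and C3 were chosen after their values were seen.

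No interferon-stimulated gene passed the rule. Of 33 at 5 CPM, 32 had a C-Raf mean above the control, with a median of 0.65. The parental library, however, had a median of −0.20 and was below the control in 24 of the 33, against 51% of all 10530 genes. All 3 lines were above the parental library in 33 of 33, against 31.8% of all genes at 5 CPM, and above both it and the control in 30, against 26%. The 3 lines were all at least 2-fold above the control in 12 of the 33, against 2.96%. Their medians were 0.66, 0.89 and 0.74. OAS2, which makes the 2-5A activator of RNase L, was at 4.52 CPM in the control and at 4.68, 36.8, 68.99 and 35.2 CPM in the C-Raf libraries. MX1, an antiviral GTPase, was at 7.65 CPM in the control against 6.49, 50.3, 68.02 and 30.8 CPM with C-Raf, highest in lymph node line 1B. IFIT1 was at 49.8 CPM in the control and at 26.2, 69.4, 81.2 and 45.2 CPM in the C-Raf libraries, so that its parental value was the lowest of the 5 and its spine value was under the control. Cytokine medians were 0.57 in the parental library and 2.11, 2.51 and 3.04 in the lines. The lines had been in mice and in culture again, and this history and the site cannot be told apart from other differences between single libraries.

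**Figure D4:**
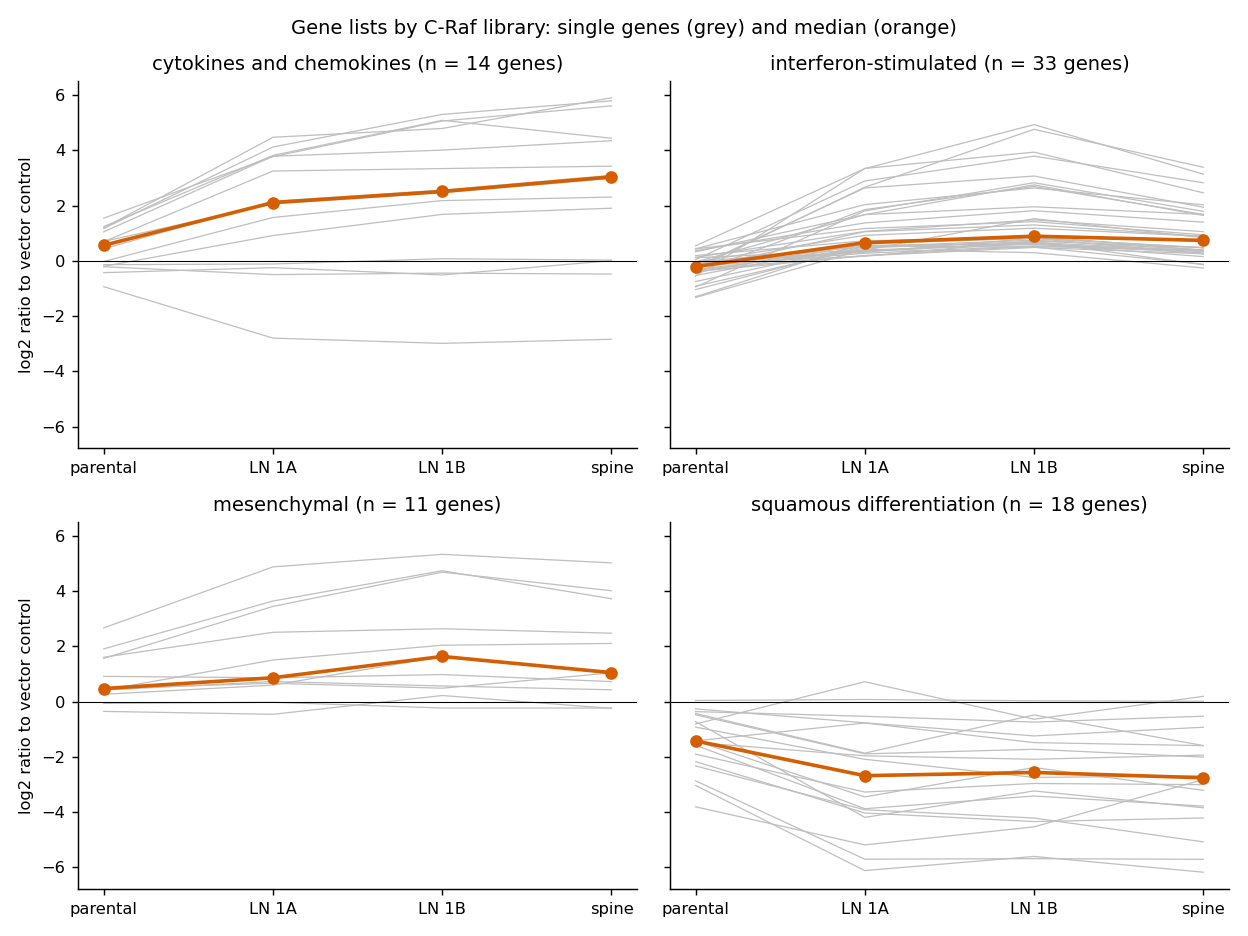
Log2 ratio to the vector control in each C-Raf library for genes at 5 CPM in 4 lists, with a grey line for each gene and an orange line at the median. Lines join the values of a gene and imply no order among libraries. The interferon median is below 0 in the parental library and above 0 in the 3 lines, whereas squamous genes lie below 0 in all 4.

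The genes were spread over the genome. Higher genes fell on 23 chromosomes and lower genes on 21. Neighbouring genes, with no other gene at 5 CPM between them, formed 18 runs on one side with 40 genes in all. IL1R1, IL1RL1 and IL18R1 formed a run of 3 at chr2:102064544-102398775 and CXCL8, CXCL3 and CXCL2 one at chr4:73740506-74099293. ANTXR2, PRDM8 and FGF5 lay at chr4:79901149-80336680. The lower genes KLK5, KLK8 and KLK10 lay at chr19:50943303-51020175. ANTXR2, an anthrax toxin receptor that binds collagen, was at 15.2 CPM in the control against 70.5, 109, 107 and 158 CPM with C-Raf, and FGF5 at 1.57 CPM in the control and at 5.57, 12.3, 6.695 and 14.8 CPM in the C-Raf libraries. Reads of close paralogs such as AKR1C1 with AKR1C3, CXCL2 with CXCL3, and STEAP1 with STEAP2 may be shared in the expected counts. On chromosome 21 the median log2 ratio over 100 genes was 0.31 in lymph node line 1A and 0.01, 0.04 and 0.04 in the parental, lymph node 1B and spine libraries, and COL6A1, COL6A2 and CYYR1 lie on it. The part of this difference in their ratios was not tested.

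Near the limit, MTSS1 and DCP1B just passed as higher, at 2.0003 and 2.0040 times the control in the nearest library, and CDA and AREG just failed, at 1.9967 and 1.9966. On the lower side RNF152 and RASEF just passed, at 2.0030 and 2.0042, and SORL1 and EPB41L1 just failed, at 1.9975 and 1.9964. The limit thus divides near-equal values.

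BPH-1, a prostate epithelial line immortalized with SV40, has 3 vector and 3 C-Raf parental libraries which the rule did not use. The fitted spread between libraries of a group, the common biological coefficient of variation, was 2.43% there and 16.8% over the 5 RWPE-1 libraries. The labels used here do not say whether the 3 libraries of a group are separate cultures, so the p-values measure spread between libraries. Transduction and culture history cannot be told apart from C-Raf in BPH-1 either. By edgeR at adjusted p below 0.05, 4017 of 13221 genes passed higher there (30.4%) and 3890 lower (29.4%). With the further condition that the 3 C-Raf and 3 vector libraries did not overlap, the shares were 29% and 27.8%. Of 155 higher RWPE-1 genes tested in BPH-1, 95 passed higher (61.3%), 33 lower and 27 did not pass, against 34.5% higher among all 10419 RWPE-1 genes at 5 CPM tested. Of 96 lower genes, 65 passed lower (67.7%), 15 higher and 16 did not pass, against 26.8% lower. The median BPH-1 log2 fold change was 0.36 for the higher and −0.41 for the lower genes, and −0.0018 over all genes tested there.

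**Figure D5:**
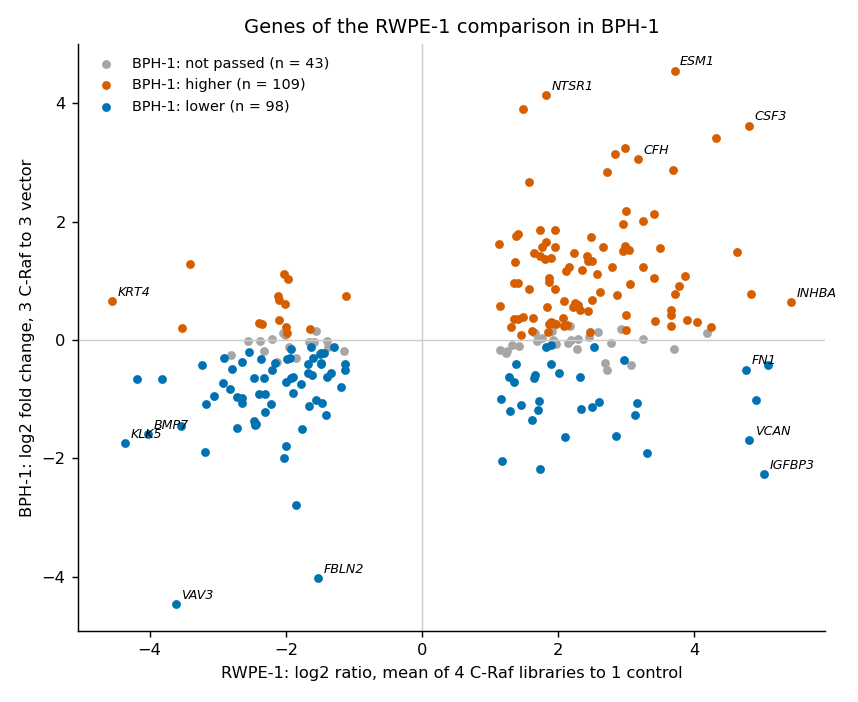
RWPE-1 log2 ratio of the mean of 4 C-Raf libraries to 1 control (x axis) against the BPH-1 log2 fold change of 3 C-Raf to 3 vector libraries (y axis), coloured by the edgeR call in BPH-1 (109 higher, 98 lower, 43 not passed). Points of both signs lie on each side, with VCAN, FN1 and IGFBP3 in the lower right.

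Of the 12 widest higher genes, 9 were tested in BPH-1, where 6 passed higher and 3 lower. The BPH-1 levels in CPM include an added prior count, unlike the RWPE-1 levels. Low BPH-1 levels therefore lie closer together than the fitted log2 fold change beside them. INHBA had 70.4 ± 2.79 CPM in vector cells and 109 ± 1.18 CPM in C-Raf cells (SD, n = 3 each), a log2 fold change of 0.64 ± 0.03 (SE) with an edgeR adjusted p of 1.24e-15. TMEM156 had 0.973 ± 0.143 CPM in vector cells and 4.04 ± 0.644 CPM in C-Raf cells (SD, n = 3 each), a log2 fold change of 2.13 ± 0.18 (SE) with an edgeR adjusted p of 3.83e-11. WIPF1, KIAA1549L, HS3ST3A1 and IL18R1 also passed higher, with log2 fold changes of 1.09, 0.91, 1.04 and 0.95. VCAN had 1.45 ± 0.286 CPM in vector cells and 0.493 ± 0.0481 CPM in C-Raf cells (SD, n = 3 each), a log2 fold change of -1.69 ± 0.27 (SE) with an edgeR adjusted p of 6.09e-06. FN1 had 328 ± 21.003 CPM in vector cells and 232 ± 3.903 CPM in C-Raf cells (SD, n = 3 each), a log2 fold change of -0.50 ± 0.03 (SE) with an edgeR adjusted p of 2.4e-13. IGFBP3 had 504 ± 8.12 CPM in vector cells and 105 ± 1.997 CPM in C-Raf cells (SD, n = 3 each), a log2 fold change of -2.26 ± 0.03 (SE) with an edgeR adjusted p of 2.88e-30. VCAN, FN1 and IGFBP3 were the 3 that passed lower. Vimentin, ZEB1 and ZEB2 did not pass the count filter there and were not tested. NTSR1, a neurotensin receptor, was at 5.72 CPM in the control against 20.99, 18.7, 22.7 and 23.8 CPM with C-Raf in RWPE-1, and in BPH-1 it had 0.625 ± 0.201 CPM in vector cells and 9.73 ± 0.449 CPM in C-Raf cells (SD, n = 3 each), a log2 fold change of 4.14 ± 0.16 (SE) with an edgeR adjusted p of 4.33e-19. ESM1 in BPH-1 had 0.584 ± 0.09405 CPM in vector cells and 12.2 ± 1.02 CPM in C-Raf cells (SD, n = 3 each), a log2 fold change of 4.55 ± 0.15 (SE) with an edgeR adjusted p of 1.12e-20. NTSR1 and ESM1 were chosen after their values were seen.

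Of the 12 widest lower genes, 11 were tested, and 9 passed lower and 2 higher. BMP7 in BPH-1 had 0.963 ± 0.246 CPM in vector cells and 0.3704 ± 0.0922 CPM in C-Raf cells (SD, n = 3 each), a log2 fold change of -1.59 ± 0.34 (SE) with an edgeR adjusted p of 0.00021. VAV3 in BPH-1 had 2.35 ± 0.244 CPM in vector cells and 0.1704 ± 0.0623 CPM in C-Raf cells (SD, n = 3 each), a log2 fold change of -4.46 ± 0.34 (SE) with an edgeR adjusted p of 3.48e-12. KLK5 in BPH-1 had 9.13 ± 0.403 CPM in vector cells and 2.79 ± 0.376 CPM in C-Raf cells (SD, n = 3 each), a log2 fold change of -1.74 ± 0.11 (SE) with an edgeR adjusted p of 6.5e-14. All 3 were lower there too. KRT4 had 4.49 ± 0.4897 CPM in vector cells and 7.03 ± 0.381 CPM in C-Raf cells (SD, n = 3 each), a log2 fold change of 0.66 ± 0.10 (SE) with an edgeR adjusted p of 4.16e-06, and KLK10 also passed higher, at a log2 fold change of 0.21. KRT13, PLAC8, SERPINB13, CXXC5, TP73 and IGFBP2 passed lower, with log2 fold changes of -0.66, -1.89, -1.45, -1.08, -0.73 and -0.66.

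Within RWPE-1 the design limits any test. With 1 control against 4 libraries, the smallest exact permutation p is 0.2 one-sided, and 0.4 where it is doubled for a two-sided test. The edgeR quasi-likelihood fit, which assumes that the lone control varies like the C-Raf libraries, called 0 of 13378 genes at adjusted p below 0.05, although 3445 (25.8%) had an unadjusted p below 0.05 and DESeq2 called 1754. Leaving out the parental library gave 3710 calls. The fit uses the same contrast as the size rule and lends the genes chosen by it no further weight.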

How the data were processed

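RNA from 5 RWPE-1 libraries, 7 further RWPE-1 C-Raf libraries and 6 BPH-1 libraries (3 vector control, 3 C-Raf parental) was used, of 24 in the series. Per the methods the cells carried lentiviral constructs, mRNA libraries were sequenced, and the authors deposited expected counts per gene made with RSEM in the TOIL pipeline. The submitters' processing notes also name cutadapt, FastQC, STAR and the build hg38, with versions not given in the sources used here. These expected counts are not normalized and not filtered, and reads shared by paralogs are divided by the model. Each table lists 60448 symbols. Symbols were matched to GENCODE 29 (36628 directly, 522 by an older symbol), and 19202 were protein-coding. 0 columns were left unused in these tables.

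Expected counts were rounded, and the libraries were scaled by TMM (edgeR 4.0.16, R 4.3.3) over protein-coding genes, which moves ratios by the same factor for every gene of a library. The size rule had a minimum of 5 CPM and a limit of 2-fold, with 0.5 CPM added before log2. BPH-1 and the 1 against 4 contrast were fitted with edgeR's quasi-likelihood test and Benjamini-Hochberg adjustment, and DESeq2 1.42.0 was an alternative. BPH-1 means and SDs in CPM were taken from log2 CPM with a prior count added, turned back to the linear scale. The statistics were tested on simulated data. For RWPE-1 the simulation drew the 4 C-Raf libraries as replicates of one condition, which these 4 are not. It therefore cannot show how the 1 against 4 fit behaves on these libraries. P-values measure the spread between these libraries, which may be technical. Figures and counts were made with Python 3.11.15.

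Named genes were the 12 higher and 12 lower with the widest separation of the nearest C-Raf library, members of a described list that passed, the genes next to the limit, ARAF and BRAF, and genes of a described run. Others are named as chosen after their values were seen, or as list members beside those that passed. The members and the 28 pathway and 6 marker lists were chosen with earlier results of these data known. Some genes that the rule takes are withheld, count in the totals, and are not reported here. Counting intervals at 95% are exact Clopper-Pearson for a level and exact Poisson for a ratio, and a count of 0 is read as up to 3 counts. Both cover counting error only. Promoters come from RefSeq (GRCh38.p14). The BPH-1 metastasis libraries were not analysed here.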

Additional observations from a re-analysis of the deposited data

Results flagged for a closer look

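Of 72 named or listed genes that passed the size rule, 60 were tested in BPH-1. Of 34 that were higher in RWPE-1, 5 passed lower in BPH-1 with no overlap of its 3 C-Raf and 3 vector libraries, and of 26 that were lower in RWPE-1, 6 passed higher in this way. Over all 13221 genes tested in BPH-1, 27.8% passed lower and 29% higher without overlap. The difference between the cell lines itself was not tested. Higher in RWPE-1 but lower in BPH-1 were IGFBP3 (BPH-1 log2 fold change −2.26), VCAN (−1.69), COL6A1 (−1.07), COL6A2 (−1.01) and FN1 (−0.50). Lower in RWPE-1 but higher in BPH-1 were IL1RN (0.68), KRT4 (0.66), TIMP3 (0.61), S100A9 (0.29), NGFR (0.23) and KLK10 (0.21). The RWPE-1 log2 ratios of these genes were 5.03 for IGFBP3, 4.81 for VCAN, 4.91 for COL6A2 and −4.55 for KRT4.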

How the results depend on the processing

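With 1 control library, no setting can show how a second control would differ. The size rule gave 171 higher and 102 lower genes, and RLE factors, no factor, all symbols of the table and a minimum of 10 CPM stayed within 1.5 times of both. No level minimum gave 1964 and 542 genes and a minimum of 1 CPM 302 and 165, since more low genes enter. A limit of 1.5-fold gave 323 and 262, and one of 3-fold 88 and 46. Leaving out 1 C-Raf library gave 172 to 328 higher and 103 to 242 lower genes. The high ends, 328 and 242, are without the parental library, and the other 3 omissions gave at most 175 and 112. The edgeR count of 0 (3445 at unadjusted p below 0.05) became 1754 with DESeq2, 20 without a filter on low counts and 9 with all symbols, and leaving out 1 library gave 0 to 3710, with 3710 again without the parental library. The cause of these changes was not tested. In BPH-1 the count of 7907 was 7679 with a replicate block and 7279 to 7631 with 1 library left out. Deviations of same-numbered BPH-1 libraries correlated at 0.04, −0.05 and −0.04 over all genes tested. Whether same-numbered libraries were prepared together was not tested. Without single RWPE-1 libraries, the higher genes that passed in BPH-1 numbered 95 to 157 higher and 33 to 94 lower, and the lower genes 15 to 43 higher and 66 to 149 lower, with the high end without the parental library, because more genes then pass the rule. For 26 named genes, 234 ratios were recomputed, of which 18 moved by 1 SD or more, all with 0.1 or 2 CPM added, and 0 changed sign.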

Other observations

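Other genes of the comparison, chosen after their values were seen, fall outside the lists. AKAP12, a scaffold for protein kinases, was at 56.1 CPM in the control and at 203, 557, 545 and 495 CPM in the C-Raf libraries. NT5E, the surface ecto-nucleotidase CD73, was at 24.2 CPM against 59.4, 115, 86.7 and 120.3 CPM. The ADAM family genes ADAM8, ADAM19 and ADAM23 were all among the higher genes, ADAM8 at 2.47 CPM against 9.64, 25.2, 21.9 and 33.3 CPM. SOX2, a transcription factor of stem and basal cells, was on the lower side at 5.24 CPM against 1.13, 0.625, 0.392 and 1.16 CPM. CEBPA, a factor of differentiation, was at 6.44 CPM against 2.43, 1.13, 1.02 and 0.922 CPM.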
